A study of Mus musculus with 25 samples.

Results

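The 34 genes described here are transcripts of neural stem cells, oligodendrocyte progenitors and astrocytes, read in macrophages that had been sorted from mouse glioblastoma. They were taken by name from a fixed list, and all 34 were among the 30749 genes of the deposited table. The list was drawn up with the low levels of many of its genes in microglia from type 2 tumours already known. For that reason the comparison of type 2 with type 1 microglia is given as a description, with no test.

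Glioblastoma is an aggressive brain tumour, and the series title names tumour progression and tumour-associated macrophages in lineage-based mouse models as its subject. The sorted cells were monocyte-derived macrophages (MDM), which are blood-borne, and microglia, which live in the brain from early development. The tumours are labelled type 2 or type 1 and were either transplanted or spontaneous. The MDM libraries numbered 2 from type 2 transplanted, 1 from type 2 spontaneous, 4 from type 1 transplanted and 2 from type 1 spontaneous tumours, and each of these 4 tumour classes gave 3 microglia libraries. No level outside a tumour is given, since 4 samples labelled as microglia of normal brain were not analysed here. The labels used here name no strain, age, driver allele, cell of origin or sort gate. Nor do they say if replicates are different mice. The p-values therefore rest on the variation among libraries, part of which may be technical.

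Neural stem cells, oligodendrocyte progenitors and astrocytes arise from the neural lineage of the brain, whereas microglia and MDM are blood-lineage cells. SOX2 and SOX9 are transcription factors of neural stem cells, OLIG1 and OLIG2 direct the oligodendrocyte lineage, and NG2 (encoded by Cspg4) and PDGFRA mark the surface of its progenitors. Delta-like ligands on a neighbouring cell activate Notch receptors, whose cleaved part joins the DNA-binding protein RBPJ at target genes such as Hes5. GFAP, ALDH1L1, GLT-1 (encoded by Slc1a2) and AQP4 are the filament, enzyme, glutamate transporter and water channel by which astrocytes are usually recognised.

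The promoters of 4 genes are shown because the results turn on them: Hes5, Sox2 and Olig2 for the tumour types, and Cspg4 for the transplanted and spontaneous models. Each line holds 250 bases before and 50 bases after the start used in the promoter table, 5′ to 3′ on the plus strand, from RefSeq GRCm38.p6. For Hes5 that start lies inside the annotated gene, whose first base is 154960626, and for the other 3 genes it is the first base of the gene. Capitals mark matches on either strand to GTGGGAA, a core of the RBPJ site, or to ACAAAG or ACAATG, the cores bound by SOX proteins.
Hes5 (chr4:154960673-154960972): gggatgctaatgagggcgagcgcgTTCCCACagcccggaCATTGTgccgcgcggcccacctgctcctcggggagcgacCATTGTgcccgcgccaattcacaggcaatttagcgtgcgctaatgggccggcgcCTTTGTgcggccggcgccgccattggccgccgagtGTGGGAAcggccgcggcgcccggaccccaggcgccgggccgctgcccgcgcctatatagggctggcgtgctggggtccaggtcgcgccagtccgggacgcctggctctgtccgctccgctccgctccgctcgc
Sox2 (chr3:34649745-34650044): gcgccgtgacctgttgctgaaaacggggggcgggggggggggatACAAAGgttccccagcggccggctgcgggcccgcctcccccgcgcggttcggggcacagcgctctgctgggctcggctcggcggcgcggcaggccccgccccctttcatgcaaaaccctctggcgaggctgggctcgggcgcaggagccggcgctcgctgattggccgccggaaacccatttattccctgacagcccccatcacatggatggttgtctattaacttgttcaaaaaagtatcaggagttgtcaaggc
Olig2 (chr16:91225300-91225599): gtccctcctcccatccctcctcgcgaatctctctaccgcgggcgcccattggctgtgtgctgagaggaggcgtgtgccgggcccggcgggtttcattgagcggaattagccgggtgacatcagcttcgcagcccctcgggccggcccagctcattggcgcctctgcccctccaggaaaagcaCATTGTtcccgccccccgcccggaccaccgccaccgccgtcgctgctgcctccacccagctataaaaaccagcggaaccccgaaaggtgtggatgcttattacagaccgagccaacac
Cspg4 (chr9:56864854-56865153): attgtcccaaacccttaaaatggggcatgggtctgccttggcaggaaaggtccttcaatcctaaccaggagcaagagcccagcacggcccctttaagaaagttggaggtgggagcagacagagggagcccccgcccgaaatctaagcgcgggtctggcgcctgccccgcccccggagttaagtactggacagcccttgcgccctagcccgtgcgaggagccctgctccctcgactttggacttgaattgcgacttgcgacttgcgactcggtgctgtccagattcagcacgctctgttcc
The Hes5 window held 2 RBPJ matches, which began 226 and 83 bases before the start used in the table, and 3 SOX matches. Sox2 and Olig2 each held 1 SOX match and Cspg4 held none of either, and the matches to the motifs did not overlap. Among 32851 promoters of the same length, 6.4% held the RBPJ letters and 28.6% a SOX core. Of 26 of the 34 genes with a promoter in the table, 3 held the RBPJ letters and 8 a SOX core. These matches are a description of the letters in the window and not of binding.

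The libraries held 26530069 to 50365607 reads, and 16297 to 21435 genes were detected in each. The sort labels stood with their markers: all 8 microglia markers were lower and all 7 MDM markers higher in MDM than in microglia. Levels here are normalised read counts, that is, reads divided by the size factor of the library. T and NK cell transcripts (12 of 13 listed genes in the table) summed to 9030 to 269000 normalised counts in MDM and 106 to 4940 in microglia. The 5 highest sums were those of type 2 transplanted MDM replicate 1 and the 4 type 1 transplanted MDM libraries, and in microglia those of type 1 transplanted replicates 1 and 2. Genes of mature neural cells were also read. The 13 neuron genes summed to 86.5 to 320 in MDM and 230 to 571 in microglia, and the 5 ependymal genes to at most 8.39 in any library. The 13 genes of myelinating oligodendrocytes summed to 9560 to 31000 in MDM and 6470 to 9980 in microglia. Of these Mog, a myelin protein gene, was at 0 in all 9 MDM libraries and reached 14.5 in microglia. Which cells the reads of the 34 genes came from was not tested.

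The 34 genes together made up a small and uneven share of each library. Microglia from type 2 tumours had reads for 15 to 25 of them (median 21), against 32 to 34 (median 34) in type 1 microglia. MDM from type 2 tumours had reads for 17, 18 and 29, against 26 to 34 (median 28) in type 1 MDM. Pou3f4, which encodes a POU-domain factor of the nervous system, had no read in any type 2 microglia library, and Olig2 and Aqp4 had none in type 2 MDM. The 34 genes took 38.9 to 87.6 RPM (reads scaled to the total of the library, median 43.0) in type 2 microglia and 101.9 to 114.5 (median 109.85) in type 1 microglia. In MDM they took 21.1, 23.6 and 35.0 in type 2 and 46.6 to 130.4 (median 78.1) in type 1 tumours. Their share of the reads did not overlap between the tumour types in either cell type, and the numbers of genes with reads overlapped in MDM but not in microglia.

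**Figure D1:**
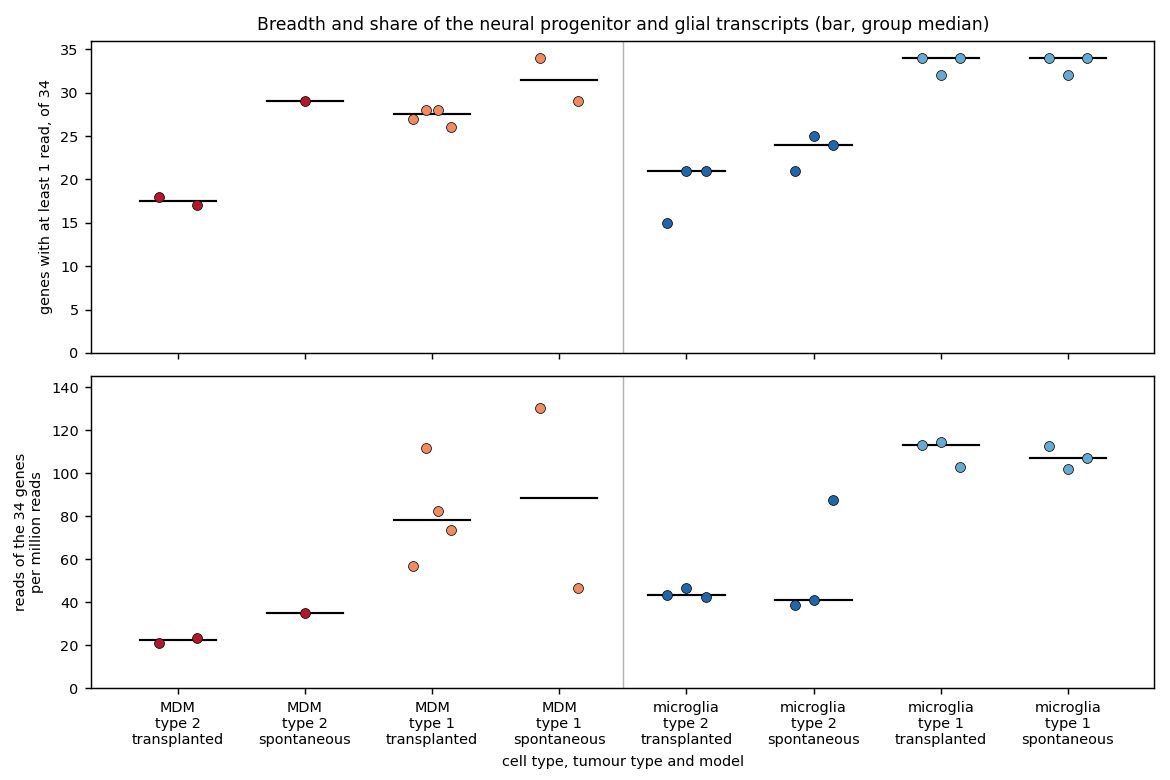
Number of the 34 genes with at least 1 read (top) and their summed RPM (bottom), by cell type, tumour type and model; each point is a library and each bar a group median. Type 2 libraries lie at 15 to 29 genes, and all 6 type 1 microglia libraries at 32 to 34.

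A few genes carried much of these reads, and not the same ones in each group. Angptl2, a secreted angiopoietin-like protein gene, took 45.6% to 72.6% of the reads of the 34 genes in the 4 type 1 transplanted MDM libraries. Aldh1l1 took 45.6% to 48.8% of them in the 3 type 2 transplanted microglia libraries. Cspg4 took 62.1% in type 2 spontaneous microglia replicate 3, the library at 87.6 RPM. In bulk libraries such as these, fewer cells with a transcript and less of the transcript per cell cannot be told apart.

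**Figure D2:**
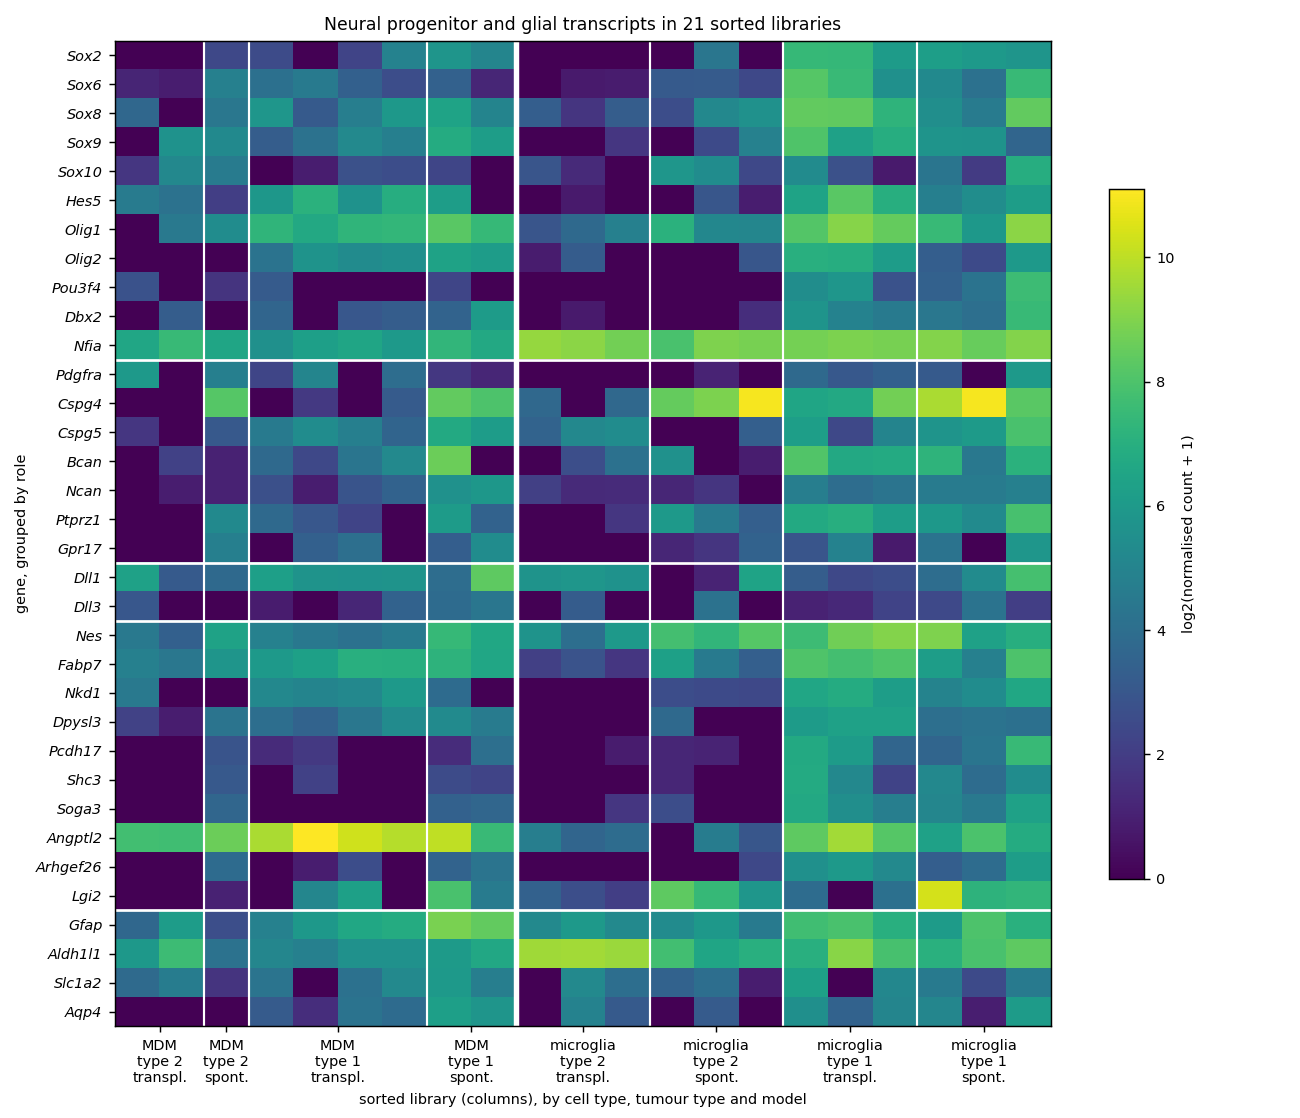
Level of each of the 34 genes (rows, grouped by role) in each of the 21 libraries (columns) as log2(normalised count + 1). The 6 type 2 microglia columns are dark for most genes, while Nfia and Aldh1l1 are bright in all 12 microglia columns.

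In microglia, 33 of the 34 fitted differences of type 2 from type 1 tumours were below 0. The median difference was -3.57 on the log2 scale, against -0.02 over the 17216 genes tested. These values chose the genes and are given with no test. Levels in type 2 microglia lay below those in type 1 without overlap for 14 of the 34 genes and above for 0, where 0.325% of all genes tested lay below and 0.128% above. Of these 14 genes, Pou3f4, Pcdh17, Shc3 and Soga3 passed the filter on low values only through type 1 microglia, where they are high. Their place in the count and in the median therefore supports no difference. The median difference was the same with Pou3f4 set to the limit that its 0 reads allow.

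The 11 transcription factor genes had a median difference of -4.55 on the log2 scale, with Nfia nearest to 0 at -0.02. Sox2 had reads in 1 of 6 type 2 microglia libraries, at 19.6 normalised counts, against 54.8 to 175 (median 70.4) in type 1 microglia. Hes5, the Notch target whose promoter is shown above, was at 0 to 6.93 (median 0.381) in type 2 and 26.8 to 308 (median 79.0) in type 1 microglia. Olig2 was at 0 to 8.38 (median 0.41) in type 2 and 4.67 to 127 (median 66.5) in type 1 microglia. The Sox2 and Hes5 ranges did not overlap, while 2 type 2 libraries had more Olig2 than the lowest type 1 library. Pou3f4 had 0 reads in the 6 type 2 libraries and 235 in the type 1 libraries, at least 19.3-fold lower against a limit of 3 reads per library. Dbx2, a homeobox gene of the ventral neural tube, had 3 reads in type 2 against 246 in type 1 microglia. Of the 246 reads 112 were in type 1 spontaneous microglia replicate 3, as were 121 of the 235 Pou3f4 reads.

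Genes of the progenitor surface, matrix and cell body also had differences below 0 in microglia, but many overlapped between the tumour types. Ncan (neurocan, a brain proteoglycan) was at 0 to 3.28 (median 1.55) in type 2 and 14.6 to 27.4 (median 23.4) in type 1 microglia. Nkd1, an inhibitor of Wnt signalling, was at 0 to 5.19 (median 2.14) in type 2 and 30.1 to 114 (median 83.6) in type 1 microglia. Gfap was at 22.2 to 60.9 (median 38.3) in type 2 and 68.1 to 255 (median 170.2) in type 1 microglia. None of these 3 ranges overlapped. Nfia, a glial transcription factor gene, was at 243 to 657 (median 481) in type 2 and 368 to 535 (median 469) in type 1 microglia, and its ranges overlapped almost wholly. Aldh1l1 was the gene with a difference above 0, at 91.2 to 766 (median 459) in type 2 and 129 to 556 (median 237) in type 1 microglia. Of the surface and matrix genes only Ncan was free of overlap, while Pdgfra, Cspg4, Cspg5, Bcan, Ptprz1 and Gpr17 overlapped between the tumour types. So did Nes, Fabp7, Lgi2, Slc1a2, Aqp4 and the Notch ligand genes Dll1 and Dll3.

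The rule for the genes rested on microglia, so in MDM type 2 was set against type 1 with a test, although results in MDM were also known when the list was drawn up. Of the 34 genes, 4 fell in type 2 MDM (Olig2, Gfap, Ncan and Olig1) and 0 rose. Of all genes tested 1.36% fell and 0.215% rose, 1.57% together. Calls were made at an adjusted p under 0.05 with limma-trend and Benjamini-Hochberg adjustment over 17216 genes, and each fitted difference is on the log2(normalised count + 1) scale with its standard error. Differences were below 0 for 28 of 34 genes, with a median of -1.47 against -0.04 over all genes tested, the same median with Olig2 and Aqp4 at the limit their 0 reads allow. The MDM groups share no library with the microglia groups on which the genes were chosen. Most MDM libraries, however, share their tumour type, model and replicate number with a microglia library. The labels do not say if such libraries came from the same tumour, so the MDM test is not known to be independent of the choice.

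Olig2 had no read in any of the 3 type 2 MDM libraries. Type 1 MDM had 17.6, 51.5, 40.6 and 45.8 normalised counts in transplanted and 83.9 and 70.2 in spontaneous tumours. All 6 type 1 libraries were thus above the type 2 libraries, at least 16.5-fold against a limit of 3 reads per library (fitted difference -5.75 ± 0.95, adjusted p = 0.0065). Olig1, its neighbour in the oligodendrocyte lineage, was at 0 and 21.8 in type 2 transplanted and 41.8 in type 2 spontaneous MDM, against 103 to 304 (median 159.8) in type 1 MDM. Its ranges did not overlap either (-3.66 ± 0.89, adjusted p = 0.045).

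Gfap was at 11.9 and 69.9 normalised counts in type 2 transplanted and 5.36 in type 2 spontaneous MDM. Type 1 MDM had 28.8, 59.4, 96.1 and 112 in transplanted and 472 and 345 in spontaneous tumours. The groups overlapped at 1 type 2 library, and the spontaneous libraries stood farthest apart (-3.57 ± 0.64, adjusted p = 0.012). Ncan had 2 reads in type 2 MDM against 136 in type 1 MDM, a ratio of 27.1 (exact 95% counting interval 7.36 to 226, difference -3.38 ± 0.70, adjusted p = 0.022). Such an interval covers counting error only. By library Ncan was at 0 and 0.87 in type 2 transplanted and 1.07 in type 2 spontaneous MDM. Type 1 MDM had 5.60, 0.87, 6.45 and 10.2 in transplanted and 48.9 and 57.2 in spontaneous tumours, so the groups overlapped.

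Among the 30 genes that were not called, Cspg5 (neuroglycan C), Fabp7 (a fatty acid-binding protein of radial glia) and Aqp4 had type 2 MDM below type 1 without overlap, as did Olig1 and Olig2. That made 5 of 34 genes below and 0 above, against 2.15% and 2.09% of all genes tested. Aqp4 had 0 reads in type 2 MDM and 196 in type 1 MDM, at least 9.22-fold lower (adjusted p = 0.069). Hes5 was at 23.8, 17.5 and 3.22 in type 2 MDM and 0 to 135 (median 65.0) in type 1 MDM, and its groups overlapped (-1.50 ± 1.07, adjusted p = 0.60). Sox10, the oligodendrocyte lineage factor, had the largest difference above 0, at 2.38, 35.8 and 23.6 in type 2 and 0 to 5.81 (median 2.47) in type 1 MDM (2.68 ± 1.34, adjusted p = 0.38).

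Single libraries decided part of these calls. Without the type 2 spontaneous MDM library, the only one of its class, type 1 spontaneous MDM left the comparison too, so only transplanted MDM were compared. In that comparison 2 genes were called, and Gfap (-1.14, adjusted p = 0.41) and Ncan (-2.05, adjusted p = 0.15) were not. Without type 1 spontaneous MDM replicate 2 there were also 2 calls, with Ncan at an adjusted p of 0.062. The Olig1 call was lost without type 1 spontaneous MDM replicate 1 or 2, type 1 transplanted MDM replicate 2, 3 or 4, or type 2 transplanted MDM replicate 1, with adjusted p of 0.073 to 0.089. With voom and with only the compared groups fitted, Gfap (adjusted p = 0.073 and 0.13), Ncan (0.073 and 0.14) and Olig1 (0.093 and 0.19) were not called. Olig2 passed without any single library. An alternative added after the data were seen left out the 4 type 1 transplanted MDM libraries, rich in T and NK cell transcripts. The type 2 transplanted libraries then left the comparison too, since groups were compared within a model. That set the lone type 2 spontaneous library against the type 1 spontaneous libraries, which is another comparison. It cannot show the part of T and NK cell transcripts, and no call is given from it. Of 12 T and NK genes 1 was lower in type 2 MDM (Cd3e, a T cell receptor subunit gene, -4.98 ± 1.19, adjusted p = 0.042), with sums of 28300 to 269000 in type 2 and 9030 to 221000 in type 1 MDM. Of the 8 microglia markers 0 were called, with sums of 27100 to 198000 in type 2 and 10700 to 172000 in type 1 MDM. Of 8 tested genes of myelinating oligodendrocytes and 9 of neurons 0 were called. Oligodendrocyte sums were 9560 to 13900 in type 2 and 11800 to 31000 in type 1 MDM. Mog, Opalin, Ermn and Ugt8a were at 0 in type 2 MDM, but were low in type 1 MDM as well. There Mog was also at 0, and Opalin, Ermn and Ugt8a reached at most 12.34, 18.15 and 3.49. The part of these transcripts in the differences of the 34 genes was not tested.

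**Figure D3:**
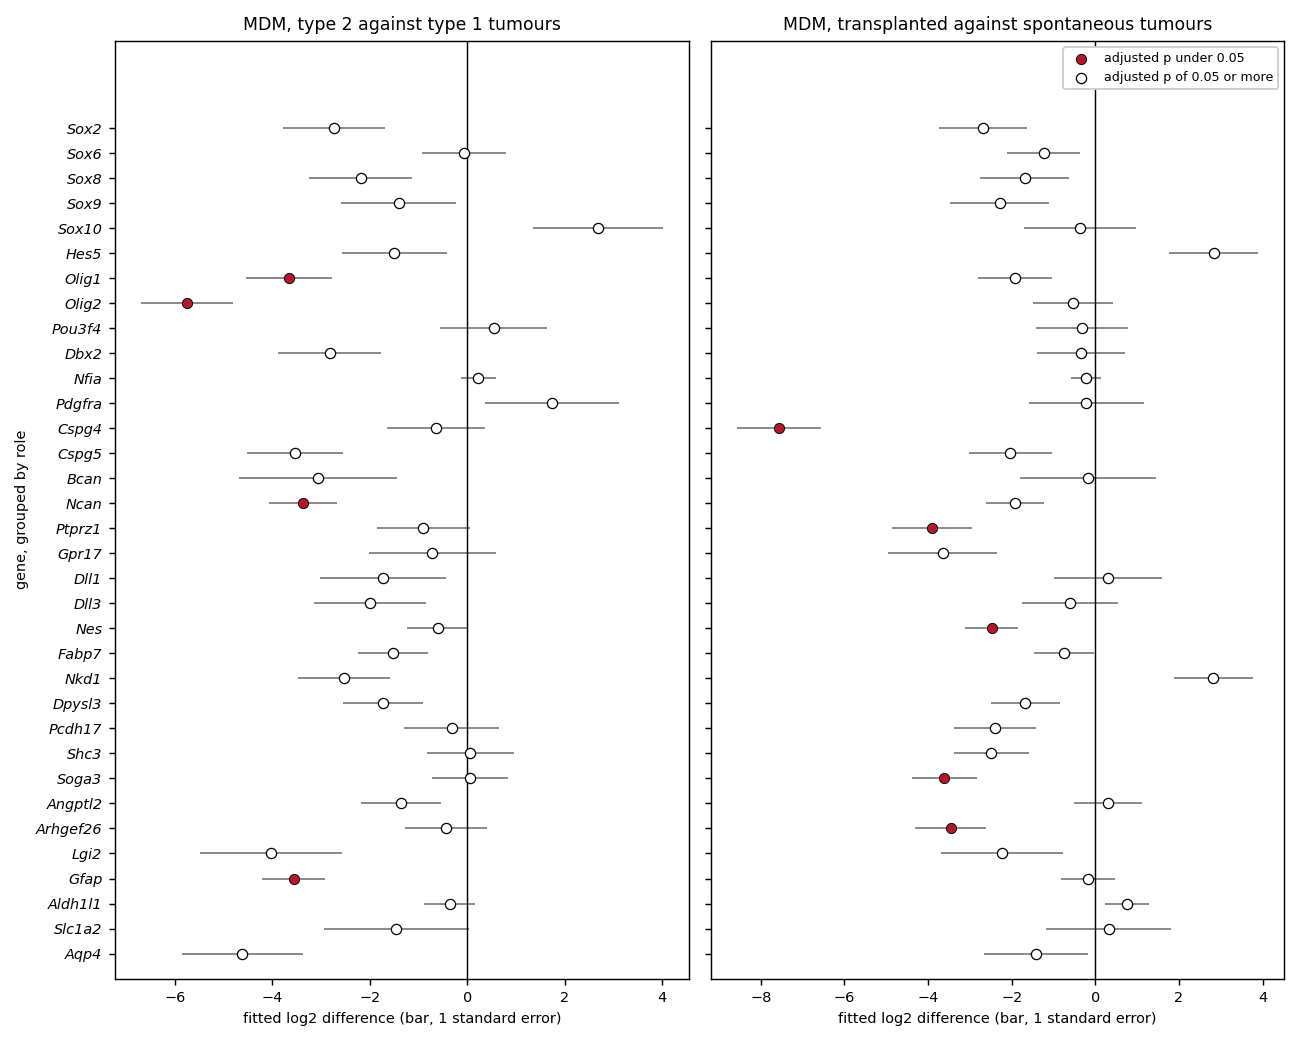
Fitted log2 differences (x axis, with 1 standard error) of the 34 genes in MDM, for type 2 against type 1 tumours (left) and transplanted against spontaneous tumours (right); filled points have an adjusted p under 0.05. On the left Olig2, Gfap, Olig1 and Ncan are filled, and on the right Cspg4, Ptprz1, Soga3, Arhgef26 and Nes.

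Between the models the clearest difference was in Cspg4, which encodes the NG2 proteoglycan of oligodendrocyte progenitors and pericytes. Transplanted MDM had 0 and 0 normalised counts in type 2 tumours and 0, 2.62, 0 and 7.99 in type 1 tumours. Spontaneous MDM had 291 in the type 2 tumour and 345 and 252 in type 1 tumours. The models did not overlap, and Cspg4 fell by 7.57 ± 1.00 on the log2 scale in transplanted MDM (adjusted p = 0.00019). The call held under each of 19 alternatives run for it, with an adjusted p of at most 0.021.

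In microglia the same gene was at 12.3, 0 and 12.7 in type 2 transplanted tumours and 359, 487 and 2001 in type 2 spontaneous tumours. Type 1 microglia had 92.4, 104 and 430 in transplanted and 835, 1976 and 311 in spontaneous tumours. The models did not overlap in type 2 microglia, and in type 1 microglia 1 transplanted library exceeded the lowest spontaneous one. Over both tumour types Cspg4 fell by 4.64 ± 0.77 in transplanted microglia (adjusted p = 0.0037), and in type 2 microglia alone it fell by 6.96 ± 1.09 (adjusted p = 0.0043). That call in type 2 microglia was lost with voom (adjusted p = 0.054) and with only the compared groups fitted (0.17). In type 1 microglia the difference was -2.31 ± 1.09 (adjusted p = 0.42), and the difference between the tumour types in this change was -4.65 ± 1.54 (adjusted p = 0.53). The call over both types was lost (-3.60, adjusted p = 0.084) without 3 type 1 microglia libraries rich in other transcripts, spontaneous replicate 2 and transplanted replicates 1 and 2, an alternative also added after the data were seen.

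In MDM 4 further genes fell in transplanted tumours, making 5 of 34 lower and 0 higher. Over all genes tested, 7.06% changed, 3.65% rising and 3.41% falling. The median difference was -1.33 against 0.02 over all genes tested, also with Soga3 at its limit, and 28 of 34 differences were below 0. Ptprz1, a receptor phosphatase of neural progenitors, was at 0 to 12.8 (median 1.94) in transplanted MDM, against 37.5, 66.8 and 10.4 in spontaneous MDM (-3.90 ± 0.96, adjusted p = 0.018). Nes, which encodes the intermediate filament nestin of neural stem cells and of some vessel cells, was at 9.61 to 28.8 (median 21.2) in transplanted MDM and 82.5, 175 and 96.3 in spontaneous MDM (-2.48 ± 0.63, adjusted p = 0.022). The Nes groups did not overlap, and 1 spontaneous Ptprz1 value lay within the transplanted range.

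Soga3 and Arhgef26 had few reads in MDM. Soga3 had no read in the 6 transplanted MDM libraries and 32 in the 3 spontaneous libraries, at least 4.34-fold lower (-3.61 ± 0.78, adjusted p = 0.0084). Arhgef26 was at 0 to 5.16 (median 0) in transplanted MDM and 13.9, 10.6 and 18.2 in spontaneous MDM (-3.46 ± 0.84, adjusted p = 0.017). Neither gene overlapped between the models. With a pseudocount of 8 neither was called (adjusted p = 0.063 for Soga3 and 0.057 for Arhgef26), and Arhgef26 was not with only the compared groups fitted (0.051). Hes5 and Nkd1 had the largest differences above 0, at 2.82 each, with adjusted p of 0.12 and 0.080.

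Several of these calls rested on few libraries. Without type 1 spontaneous MDM replicate 1, Nes (adjusted p = 0.063) and Ptprz1 (0.064) were not called. Without the type 2 spontaneous MDM library, type 2 transplanted MDM left the comparison too, and Ptprz1 was not called within type 1 tumours (0.15). Nes was also not called after rescaling to the same total (0.053) or with voom (0.065), nor Ptprz1 with only the compared groups fitted (0.082). Without type 2 transplanted MDM replicate 3 the number of genes called was 8. With the 4 type 1 transplanted MDM libraries left out, type 1 spontaneous MDM left the comparison too. That set the type 2 transplanted libraries against the lone type 2 spontaneous library, which is another comparison, and no call is given from it. Transcripts of other cells differed between the models in MDM as well. T and NK sums were 28300 to 269000 in transplanted and 9030 to 34900 in spontaneous MDM, with 2 of 12 genes higher, and 3 of 8 microglia markers were lower, with sums of 10700 to 198000 in transplanted and 76100 to 172000 in spontaneous MDM. B cell genes rose for 3 of 5. Endothelial and mural genes (8 listed, 5 tested) had 0 calls by limma-trend, with sums of 1570 to 4760 in transplanted and 2050 to 10200 in spontaneous MDM. Their 5 fitted differences went both ways, from -2.31 to 1.12, with 3 below 0. Kdr, a VEGF receptor gene of endothelium, was at 249 and 182 in type 2 transplanted MDM and from 87.3 in type 1 transplanted MDM, all 6 lower than the spontaneous libraries at 491 in type 2 and 485 and 7271 in type 1 spontaneous MDM (-2.31 ± 0.86, adjusted p = 0.12). Rgs5 and Tek were at 0 in spontaneous MDM. The part of these transcripts in the falls was not tested.

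In microglia of both tumour types 2 of the 34 genes fell in transplanted tumours and 0 rose, where 1.84% of all genes changed, 1% rising and 0.836% falling. Besides Cspg4 this was Lgi2, a secreted leucine-rich repeat protein gene of the nervous system. Lgi2 was at 9.84, 5.33 and 3.17 in type 2 and 14.1, 0 and 16.4 in type 1 transplanted microglia, against 331, 173 and 55.6 in type 2 and 1354, 143 and 158 in type 1 spontaneous microglia. The models did not overlap (-5.06 ± 1.12, adjusted p = 0.028). The call was lost without any 1 of 6 libraries, namely type 1 spontaneous replicate 1, type 1 transplanted replicate 2, type 2 spontaneous replicates 1 and 2 and type 2 transplanted replicates 2 and 3, with adjusted p of 0.056 to 0.079. It was also lost with no filter (0.066), voom (0.053) and the replicate block (0.072). The median difference of the 34 genes was 0.02, against 0.04 over all genes tested. T and NK genes rose for 6 of 12 in transplanted microglia, with sums of 256 to 4940 in transplanted and 106 to 330 in spontaneous microglia. MDM markers fell for 2 of 7, with sums of 1540 to 5860 in transplanted and 3560 to 18700 in spontaneous microglia. Their part in the falls of Cspg4 and Lgi2 was not tested.

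Within the tumour types, 0 of 34 genes were called in type 1 microglia by limma-trend and 0 by voom. Of all genes tested, 0.267% were called there by limma-trend (0.163% rising, 0.105% falling). An unadjusted p under 0.05 was reached by 4 of the 34 genes and by 2041 of the 17216 genes tested. In type 2 microglia Cspg4 was the gene called, against 0.558% over all genes (0.232% rising, 0.325% falling). With voom, and with only the compared groups fitted, 1 gene was called each time and it was not Cspg4. Without type 2 spontaneous microglia replicate 3, however, 6 genes were called. The tumour type by model interaction called 0 of 34 genes by limma-trend and 0 by voom. By limma-trend it called 0.0116% of all genes, 0.00581% above 0 and 0.00581% below. Its unadjusted p was under 0.05 for 13 of the 34 genes and for 1088 of the 17216 genes tested. The largest interactions were those of Dll1 (6.16 ± 1.99, adjusted p = 0.51), whose values are given with the Notch genes, and Cspg5. Cspg5 was at 10.7, 35.8 and 41.2 in transplanted and 0, 0 and 9.41 in spontaneous type 2 microglia, but at 75.0, 4.38 and 31.3 in transplanted and 52.5, 66.4 and 243 in spontaneous type 1 microglia (interaction 5.61 ± 1.53, adjusted p = 0.37).

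Between the cell types 7 of the 34 genes changed, 1 higher and 6 lower in MDM than in microglia, against 42.7% of all genes tested, 23% higher and 19.8% lower. The share of the 34 genes that changed was thus below that of all genes. The microglia libraries on which the genes were chosen enter this comparison, with both tumour types weighted equally. Angptl2 rose in MDM, at 185 to 2207 (median 839) in 9 MDM libraries and 0 to 753 (median 53.3) in 12 microglia libraries (3.25 ± 0.51, adjusted p = 5e-05). It was at 839, 2207, 1277 and 948 in type 1 transplanted and 1045 and 185 in type 1 spontaneous MDM, and the cell types overlapped within type 1 tumours. In type 2 tumours MDM, at 206 to 388, lay above microglia, at 0 to 26.2, without overlap.

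Nfia fell in MDM, at 46.4 to 176 (median 91.1) against 243 to 657 (median 473) in microglia, with no overlap (-2.18 ± 0.23, adjusted p = 4.8e-07). Aldh1l1, a folate enzyme gene used as an astrocyte marker, was at 17.1 to 193 (median 48.4) in MDM and 91.2 to 766 (median 237) in microglia (-2.45 ± 0.33, adjusted p = 9.1e-06). Its 3 highest values, 741, 766 and 701, were in type 2 transplanted microglia. Angptl2, Nfia and Aldh1l1 were called under each of the 31 alternatives run for them.

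Cspg4 (-2.82 ± 0.63, adjusted p = 0.0013) and Nes (-1.75 ± 0.40, adjusted p = 0.0015) were also lower in MDM, and neither was called with the 4 type 1 transplanted MDM libraries left out (adjusted p = 0.094 and 0.17). Type 1 transplanted microglia then left the comparison too, so fewer tumour classes were compared. In the same way, type 2 spontaneous microglia left it whenever the type 2 spontaneous MDM library was left out. Lgi2 (-2.69 ± 0.92, adjusted p = 0.024) was not called without type 1 spontaneous MDM replicate 2 (adjusted p = 0.073) or the type 2 spontaneous MDM library (0.23), nor with the replicate block by tumour (0.078), with voom (0.070) or with no filter (0.052). Soga3 (-1.30 ± 0.49, adjusted p = 0.041) passed the filter on low values only through type 1 microglia, where it is high, so its call supports no difference between the cell types. It was not called without any 1 of the type 1 or type 2 transplanted MDM libraries, either type 1 spontaneous MDM library, type 1 spontaneous microglia replicate 3, type 1 transplanted microglia replicate 1, type 2 spontaneous microglia replicate 1 or type 2 transplanted microglia replicate 3, with adjusted p of 0.052 to 0.073, and its difference was 0.15 with the 4 type 1 transplanted MDM libraries left out. Without the type 2 spontaneous MDM library, 12 of the 34 genes were called.

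**Figure D4:**
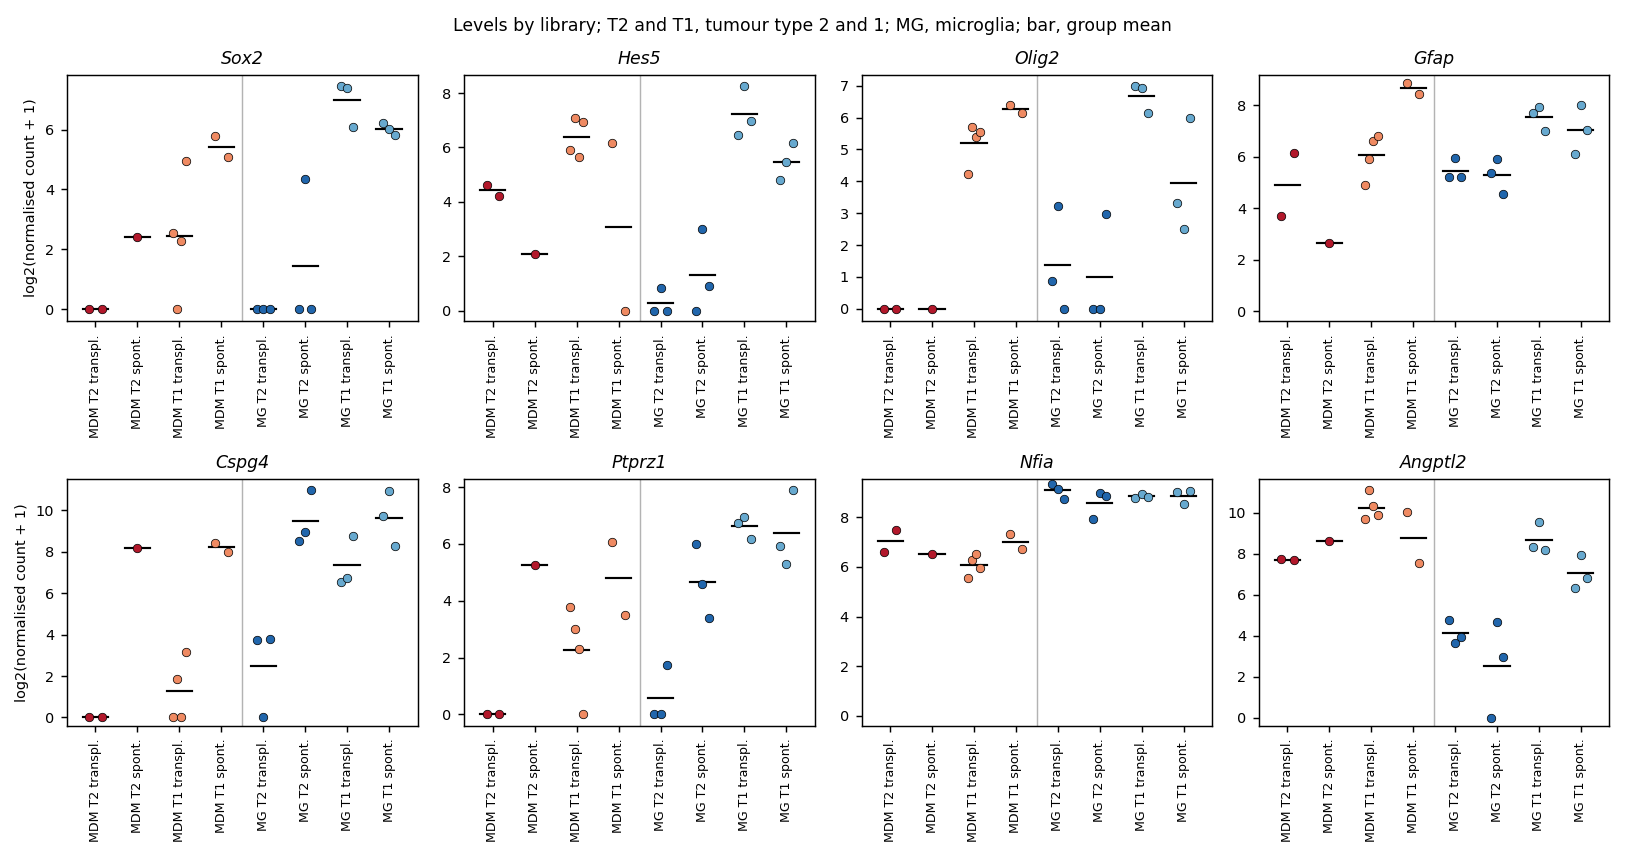
Levels of 8 of the genes as log2(normalised count + 1) by cell type, tumour type and model; each point is a library and each bar the mean of its group. Olig2 is at 0 in all 3 type 2 MDM libraries, the Cspg4 mean is lower in transplanted than in spontaneous tumours in both cell types, and Nfia lies at 46.4 to 176 normalised counts in MDM and 243 to 657 in microglia.

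Further genes of the same lineages and of the Notch pathway were read from separate lists. Of 17 tested genes of a second neural progenitor list, 1 fell in type 2 MDM, C1ql1, a secreted C1q-like protein gene of oligodendrocyte progenitors (-3.35 ± 0.82, adjusted p = 0.047), and the median difference was -0.86. Of 14 further astrocyte genes 0 were called by limma-trend, with a median of -2.22. Mlc1, an astrocyte membrane protein gene, had -3.28 ± 0.92 (adjusted p = 0.082). Of 19 further Notch pathway genes 1 fell in type 2 MDM, Rfng, which encodes a glycosyltransferase that modifies Notch (-1.02 ± 0.25, adjusted p = 0.047), and the median was -0.74.

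The 34 genes themselves include the Notch ligand genes Dll1 and Dll3 and the target Hes5, and these did not move together. Dll1 was at 51.6, 55.6 and 49.9 in type 2 transplanted microglia and 0, 1.15 and 85.5 in type 2 spontaneous microglia, while Hes5 stayed at 6.93 or less in these 6 libraries. In type 1 transplanted microglia Dll1 was at 8.70, 4.38 and 5.22 and Hes5 at 87.0, 308 and 124. Dll3 was below 20 normalised counts in all 21 libraries. Nrarp, a Notch feedback gene outside the 34, rose in transplanted microglia (3.77 ± 0.92, adjusted p = 0.044), the 1 call among 19 further Notch genes there. In MDM the model comparison called 0 of the 17 progenitor, 14 astrocyte and 19 Notch genes.

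Across microglia libraries most of the 34 genes followed each other. Pearson's r of each gene with the mean of the other 33, on the log2 scale over 12 microglia libraries, was 0.96 for Sox6, Dbx2 and Nkd1, 0.92 for Hes5 and 0.91 for Sox2. These libraries divide by tumour type, which the choice of genes used, so the values describe that division as well. Over 9 MDM libraries r was 0.85 for Sox2 and 0.89 for Fabp7 and Cspg5, but -0.07 for Hes5 and Pou3f4, -0.31 for Pdgfra and -0.39 for Sox10, the lowest. Nfia, Dll1 and Aldh1l1 did not follow the others in either cell type, at -0.01, -0.06 and -0.35 in microglia and 0.02, 0.14 and -0.16 in MDM. Pdgfra, the receptor gene of oligodendrocyte progenitors and of some fibroblasts, was highest in type 2 transplanted MDM replicate 1 at 64.4 and type 1 spontaneous microglia replicate 3 at 61.3.

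**Figure D5:**
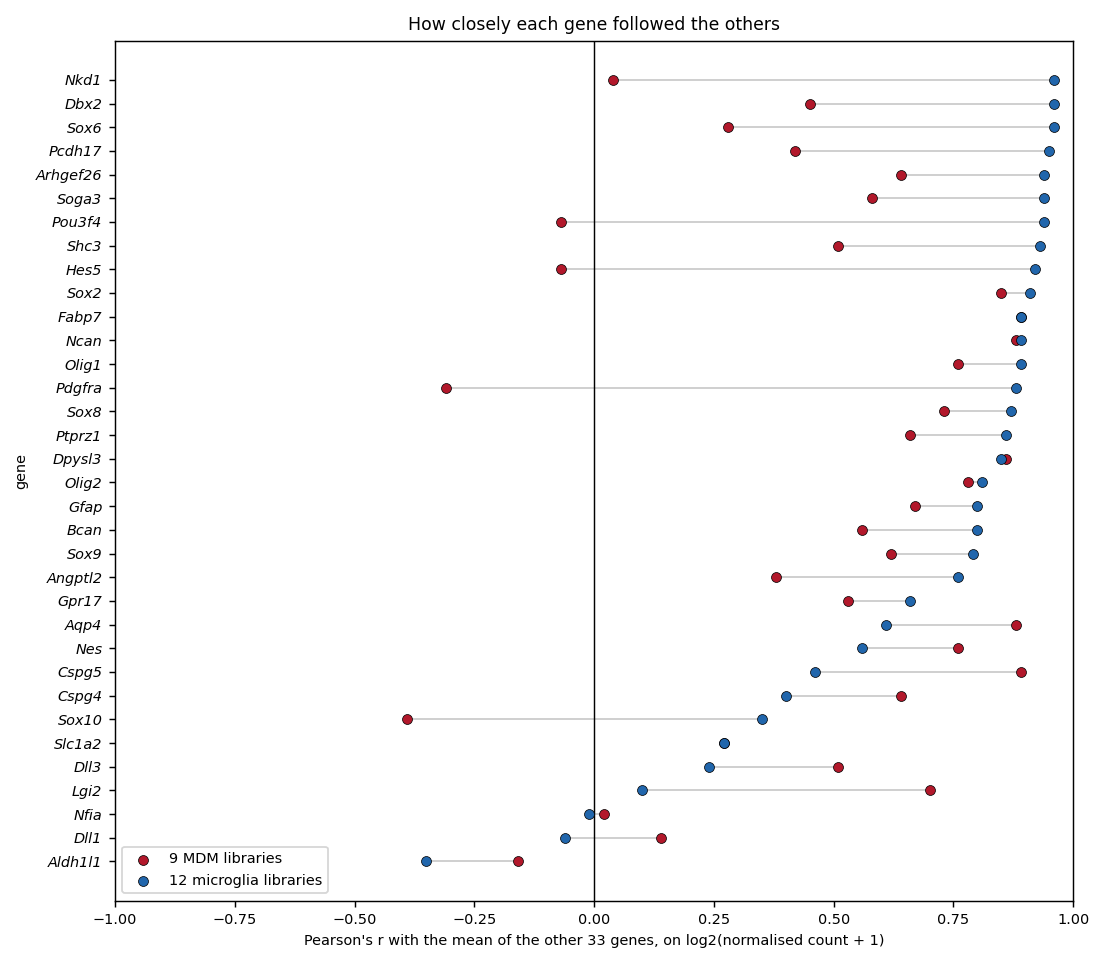
Pearson's r of each gene with the mean of the other 33 genes over 9 MDM libraries and 12 microglia libraries, as a description; where 1 point hides another the values are equal. Most genes lie above 0.5 in microglia, and in MDM Sox10, Pdgfra, Aldh1l1, Hes5 and Pou3f4 lie below 0 and Nfia and Nkd1 at 0.02 and 0.04.

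Outside the 34, the 12 tested genes whose levels were most like their mean over all 21 libraries included Nnat (r = 0.89), Obsl1, Syn2, Sox21, Brinp3, St6gal2, Srgap1, Pcdh10, Tmeff2, Msi1 and Ube2ql1 (r = 0.81). Nnat, which encodes the membrane protein neuronatin, averaged 10.4 and 57.5 normalised counts in type 2 transplanted and spontaneous microglia, and 192 and 202 in type 1 transplanted and spontaneous microglia. Sox21, a SOX factor gene of neural progenitors, was at 0 in all type 2 microglia and MDM, and averaged 24.3 and 7.57 in type 1 transplanted and spontaneous microglia. The points of these correlations share their libraries and depth.

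All 34 genes were matched in RefSeq GRCm38.p6, and 16 overlap another annotated gene there. The strand of the reads is not stated, so reads of such pairs cannot be told apart. Sox2 overlaps the noncoding gene Sox2ot, which had 2.29 normalised counts in type 2 transplanted microglia replicate 2 and 0 in the other type 2 libraries. Angptl2 overlaps Ralgps1, which had 40.9 to 706 normalised counts over the libraries, and 69.6, 123, 247 and 108 in type 1 transplanted MDM.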

How the data were processed

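RNA of sorted MDM and microglia was taken up in TRIzol, purified with the miRNeasy Micro kit and amplified with SMART-Seq v4, per the labels' protocols. The authors used STAR 2.7.8a, DESeq2 and the mm10 build, per the submitters' processing notes. The authors deposited 1 table of log2-like, variance-stabilised values for 30749 genes in 21 libraries, with a floor of 4.22. Inverting the transformation gave whole reads per size factor for 100% of values within 1e-06 of a read, and size factors of 0.62 to 1.55. Totals were 26530069 to 50365607 reads.

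Tests were run with limma 3.58.1 (R 4.3.3, limma-trend) on log2(normalised count + 1), with 8 group means fitted over all 21 libraries and groups weighted equally within a comparison. Genes with at least 10 normalised counts in at least 3 libraries were kept, which left 17216. All 34 listed genes passed, 4 of them (Pou3f4, Pcdh17, Shc3 and Soga3) only with the type 1 microglia libraries. P-values were adjusted by Benjamini-Hochberg over the 17216 genes, and an adjusted p under 0.05 was called. The code was tested on simulated data. All 34 genes could be named, with up to 4 genes of smallest p from each other list and the 12 other tested genes most like the mean of the 34, predicted Gm and Rik genes left out; 1 of these 12 is not reported here. The 34 genes and the other lists were chosen with earlier results of these data known. Promoters came from RefSeq GRCm38.p6. Figures and summaries were made with Python 3.11.15, numpy 2.4.6, pandas 2.3.3 and matplotlib 3.10.9. Alternatives changed the pseudocount, filter, scaling, input values, libraries fitted and replicate block, and left out each library. A group left without a library dropped out of a comparison together with the group matched to it on the other side.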

Additional observations from a re-analysis of the deposited data

Results flagged for a closer look

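Within the 4 type 1 transplanted MDM libraries, 7 genes had 1 library far from the other 3 by Dixon's test. These were Sox2 at 29.8 normalised counts, Dll3 at 10.2 and Nkd1 at 62.4 in replicate 4, Pou3f4 at 8.0 and Dll1 at 75.2 in replicate 1, Shc3 at 3.5 in replicate 2 and Arhgef26 at 5.2 in replicate 3. Chance sets apart about 1 in 20 groups. In Pou3f4 and Shc3 the other 3 libraries had no read, so that any read in the remaining one gives this outcome, and the genes share their libraries, so the number set apart is not read against chance.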

How the results depend on the processing

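The counts of genes called varied with the processing as follows. For MDM against microglia, 7 calls became 11 with quantile normalization and 4 without the 4 type 1 transplanted MDM libraries, where type 1 transplanted microglia left the comparison too. For transplanted against spontaneous microglia of both types, 2 became 1 with no filter, with voom and with the replicate number as a block, and 0 without the 3 microglia libraries. In type 2 microglia, 1 became 2 when libraries were rescaled to the same total and on the deposited values, while with voom and with the compared groups alone the 1 call was not Cspg4 (adjusted p = 0.054 and 0.17). For type 2 against type 1 MDM, 4 became 2 with quantile normalization, and 1 with voom and with the compared groups fitted alone. For transplanted against spontaneous MDM, 5 became 3 with the filter at 50 and with the compared groups alone. Without the 4 libraries these 2 comparisons within MDM lost a matched group as well and had 1 library on 1 side, so no count is given. The Soga3 difference of MDM from microglia turned to 0.15 without the 4 libraries (adjusted p = 0.90). The causes were not tested.

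With 1 library left out at a time, the calls ranged from 5 to 12 for MDM against microglia, 1 to 2 for the model in microglia, 0 to 0 in type 1 and 1 to 6 in type 2 microglia, 0 to 0 for the interaction, 2 to 4 for tumour type in MDM and 5 to 8 for the model in MDM. The lone type 2 spontaneous MDM library has no spread of its own and was assumed to vary like the others. Where it was left out, the group matched to it left the comparison too. With the replicate block the calls were 5 for MDM against microglia, where Lgi2 (adjusted p = 0.078) and Soga3 (0.11) were lost, 3 with Ncan lost (0.084) for tumour type in MDM and 5 for the model in MDM; the labels do not say that a number marks a shared animal, and same-numbered MDM and microglia correlated at 0.04 to 0.24. Under rescaling the median over all tested genes shifted by 0.32 for the model in MDM and 0.23 for MDM against microglia, with 79.5% of calls higher against 51.7% and 67.4% against 53.7%. Genes with few reads in all libraries limit what the depth can show.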

Other observations

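Prom1, which encodes the progenitor membrane protein prominin-1, rose in transplanted microglia (4.59 ± 0.68 on the log2 scale, limma-trend adjusted p = 0.0014). It was the 1 call among 17 tested genes of the second progenitor list, of which 13 had a difference below 0 (median -0.71). Prom1 was at 21.3, 10.7 and 23.0 normalised counts in type 2 transplanted microglia and 119, 77.3 and 61.9 in type 1 transplanted microglia. In spontaneous microglia it was at 17.7 in type 1 replicate 3 and at 0 in the other 5 libraries. Every transplanted library except type 2 replicate 2 lay above the highest spontaneous one. Mlc1 also rose (3.31 ± 0.71, adjusted p = 0.024), at 1.64, 16.8 and 1.58 in type 2 and 108, 65.7 and 41.8 in type 1 transplanted microglia, against 0 in the 3 type 2 and 2.23, 1.87 and 3.22 in the type 1 spontaneous libraries. T and NK genes rose in the same comparison for 6 of 12, and their part was not tested.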
